A study of Homo sapiens with 26 samples.

Results

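Guide libraries DR1 and DR2 are a pair of CRISPR knockout pools that were sorted on myosin heavy chain (MYH) staining in RH4, an established human rhabdomyosarcoma line labelled PAX3-FOXO1+. Every target of these pools was taken, apart from the guide sets that all pools share. This gave 149 targets, 75 in DR1 and 74 in DR2, out of 983 target measurements in the 10 pools of the myo-differentiation screen, and the other 8 pools held 834. What the letters DR stand for is not given in the labels. No gene was common to DR1 and DR2, and 7 shared control sets with 67 guides were present in both.

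All groups were RH4 cells that had been infected with a guide library, drug selected and harvested at day 7 after infection. The cells were fixed, permeabilised, stained with antibody to MYH and separated by flow cytometry into MYH high and MYH low cells, and the guide cassette was counted from genomic DNA. Each pool gave 1 MYH high and 1 MYH low sample, so these 4 of the 26 samples of the series carry all values on the targets, and no difference between the arms has a replicate check. The errors given beside targets are SDs over guides, which share a gene and a sort and are not replicates of the condition. RH4 is 1 cell line, RNA and protein were not measured in these samples, and cell type markers could therefore not be read from them. The DR1 samples held 31309862 (MYH high) and 5548348 (MYH low) counts, with a median of 33424 and 6173 reads per guide. The DR2 samples held 34837089 and 42699888 counts, with medians of 39145 and 49055 reads per guide. Counting error on a guide's log2 ratio had a median of 0.0201 in DR1 and 0.00983 in DR2, well under the median SD over the guides of a target, which was 0.207 and 0.154. No molecular identifiers are described, so this covers counting error alone.

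PAX3-FOXO1 joins the DNA-binding domain of PAX3 to the transactivation domain of FOXO1 and is the driver of most alveolar rhabdomyosarcomas. These tumour cells express early myogenic factors but do not complete muscle differentiation, and myosin heavy chain is a protein of cells that have done so. In such a sort, a guide that is enriched in MYH high cells marks a knockout whose carriers stain more strongly for MYH, and a guide enriched in MYH low cells marks the opposite.

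The 149 targets are a mixture of cell surface, secreted, enzymatic and nuclear proteins, and were placed by name into 11 classes. The largest with a shared role were metabolic, lipid and glycan enzymes with 21 targets, transcription factors and nuclear regulators with 16, and intracellular signalling proteins and adaptors with 16. Receptors at the cell surface numbered 15, extracellular matrix, protease and other secreted proteins 14, and ion channels, pumps and transporters 14. There were 13 secreted ligands and signal modulators, 10 adhesion and membrane organisation proteins, 10 proteins of the cytoskeleton and membrane traffic, 3 nucleic acid enzymes or RNA-binding proteins, and 17 other or little described genes. Of 22 lists, mostly of DNA repair, replication, chromatin and ubiquitin genes with no general list of kinases, 1 held any of these targets, the nuclear receptors, with RORA. DR1 held 751 guides to its targets and DR2 held 750, mostly 10 per target, with 21 guides to RYR3, 12 to SNED1, and 9 each to TOX3 and RNF150.

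Guide counts were scaled to a common sample total (CPM, each count as a share of its sample's total). For each guide the MYH high value was divided by the MYH low value, and the log2 of this ratio was taken and centred on the median guide of its pool, and each target was given the median of its guides. No target of either pool reached 0.3 in size (1.23-fold). In DR1, 0 of 75 targets lay at or above 0.3 (0%) and 0 at or below -0.3 (0%), and DR2 likewise had 0 of 74 in each direction (0% and 0%). Over all 10 pools the same rule gave 15 targets at or above 0.3 (1.53% of 983) and 7 at or below -0.3 (0.712%). Target medians ran from -0.27 to 0.15 in DR1 and from -0.14 to 0.14 in DR2. Of the DR1 medians, 37 lay above 0 and 38 below, and of the DR2 medians 42 lay above and 32 below. Medians smaller than 0.1 in size made up 63 of 75 targets in DR1 and 66 of 74 in DR2. The median was smaller in size than the target's own SD over guides in 72 of 75 and 72 of 74 targets.

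**Figure D1:**
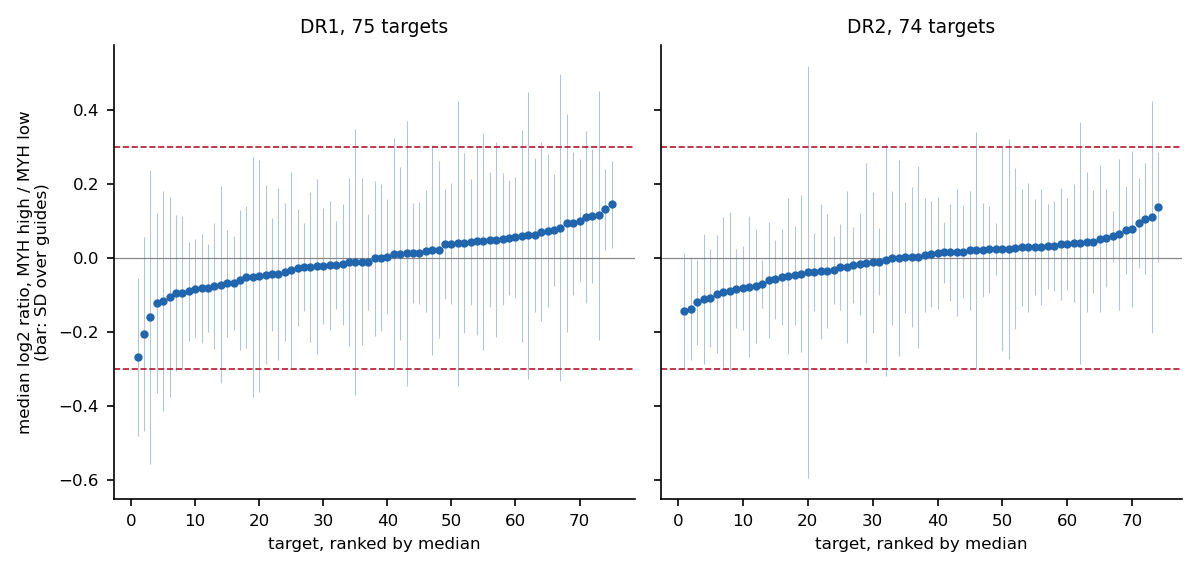
Median log2 ratio of each target, MYH high over MYH low (vertical axis), against its rank within the pool (horizontal axis), for the 75 targets of DR1 (left) and the 74 of DR2 (right). Bars are the SD over guides and dashed lines mark 0.3 and -0.3; every point lies between the dashed lines, and in DR1 the points at the left end, NRG1 and KANK4, sit apart from the rest at -0.27 and -0.21.

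The same sorts separated guides against the fusion. Guides to the DNA-binding part of PAX3 that the fusion retains (the set PAX3_Fusion_DBD) had a median of 4256 CPM in the MYH high and 505 CPM in the MYH low sample of DR1, and 2491 and 304 CPM in DR2. In DR1 the median of the guides' log2 ratios was 3.25 (SD 1.21, n = 10 guides, 9.51-fold). In DR2 it was 3.11 (SD 0.58, 8.65-fold). Such a median, here and for the targets, need not equal the ratio of the median CPM values. Guides to the FOXO1 part of the fusion had medians of 2.71 (SD 0.67) and 2.69 (SD 0.65), with 10 of 10 guides above 0 in both pools. Both sets were thus enriched in MYH high cells by far more than any of the 149 targets. In the other 8 pools the medians of these sets spanned 2.71 to 4.53 and 2.25 to 4.23.

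The remaining shared sets lay near 0 in DR1 and DR2, and show how far a set without a fusion target moved between DR1 and DR2. Guides to the parts of PAX3 outside the fusion had medians of -0.02 in DR1 and 0.01 in DR2. MYOD1, a transcription factor that sets myogenic fate, had -0.08 and -0.00, and PCNA, the replication clamp, 0.14 and 0.05. The negative-control guides had 0.05 and -0.11, and FOXO1_non-fusion -0.04 and 0.06. In the other pools these sets reached further. Their medians there spanned -0.11 to 1.30 (negative controls), -0.11 to 1.34 (PCNA) and 0.02 to 1.04 (PAX3 outside the fusion). MYOD1 spanned -0.39 to 0.52 and FOXO1_non-fusion -0.07 to 0.52, so the highest median of every set lay above 0.3. Differences between DR1 and DR2 alone are therefore no bound on how far such a set can move. The absolute difference between DR1 and DR2 over these 5 sets was 0.0307 to 0.153. Against the largest of those differences, 72 of 75 target medians in DR1 and 74 of 74 in DR2 were smaller in size, and the exceptions were NRG1, KANK4 and SSTR5. That difference is the one of the negative controls, and without their guide sgRNA3239, which stood apart in DR1, it was 0.259 (a value added after seeing the data), with NRG1 as the only exception (74 of 75 in DR1 and 74 of 74 in DR2 smaller).

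At the level of single guides, DR1 and DR2 ordered the fusion guides alike, while the other shared guides showed no common order. Over the guides of both fusion sets and sgRNA3191, a guide labelled FOXO1_non-fusion, 21 in all, the ratios in DR1 and DR2 had a Pearson r of 0.91 and a Spearman rho of 0.95. Over 45 shared guides without a fusion target, which leaves out 1 negative-control guide, Pearson r was -0.11 and Spearman rho -0.04. These correlations are descriptions across guides that share 2 sorts and their libraries. The SD of the DR1 minus DR2 difference over those 45 guides was 0.255, their median absolute difference was 0.128, and 37 of the 45 lay within 0.3 of each other.

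**Figure D2:**
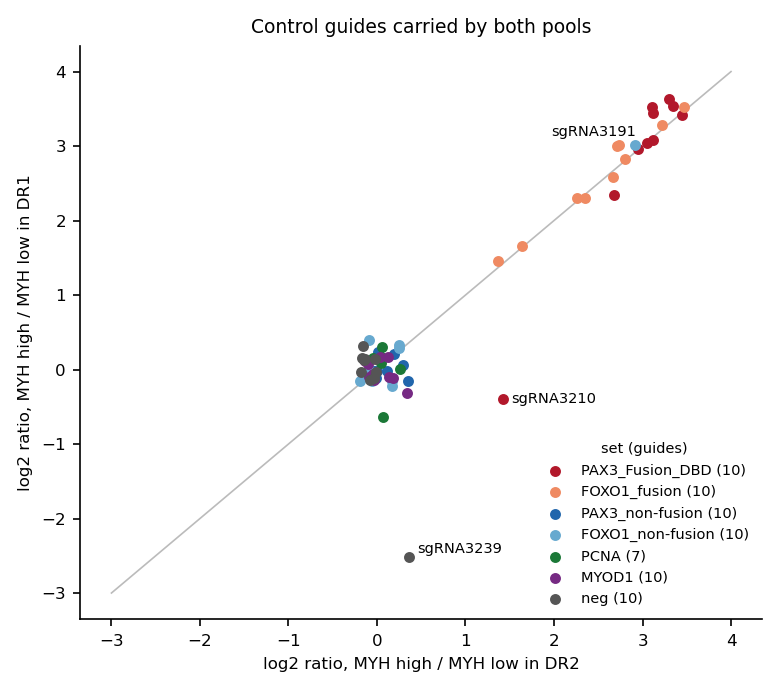
Log2 ratio, MYH high over MYH low, of the 67 control guides in DR1 (vertical axis) against DR2 (horizontal axis), coloured by set, with the line of equal values in grey. Most fusion guides lie along the line near 3 together with sgRNA3191, labelled FOXO1_non-fusion, most guides of the other sets form a cloud around 0, and guides sgRNA3210 and sgRNA3239 lie far off the line.

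Several control guides stood apart and touch the centring and the control values. Guide sgRNA3239, a negative control, took 25718 CPM (2.57% of reads) in the MYH low sample of DR1 and 4184 CPM in the MYH high sample, a log2 ratio of -2.51, against 0.36 in DR2 and -2.06 to 4.43 in the other 8 pools. Without it the negative controls had medians of 0.12 (SD 0.15, 9 guides) in DR1 and -0.14 (SD 0.07, 0 of 9 guides above 0) in DR2. Guide sgRNA3210 of the PAX3_Fusion_DBD set had -0.40 in DR1, from 1528 counts in MYH high and 388 in MYH low, and 1.42 in DR2. Guide sgRNA3191 is labelled FOXO1_non-fusion in the counts but had 3.02 and 2.92, and the authors' deposited table counts 11 guides for FOXO1_fusion and 9 for FOXO1_non-fusion. With that guide left out, FOXO1_non-fusion had medians of -0.04 and -0.06.

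The zero point of the ratios matters for values this small. The 21 fusion guides, 2.57% of the guides in either pool, took 9.83% of reads in the MYH high and 1.41% in the MYH low sample of DR1, and 6.16% and 0.977% in DR2. The median guide before centring stood at -0.11 in DR1 and -0.08 in DR2. Across 5 choices of zero point, all targets of a pool shifted together by -0.12 to 0.01 in DR1 and by -0.08 to 0.14 in DR2. The sign of the median was the same under all 5 for 39 of 75 targets in DR1 (2 above and 37 below 0) and for 5 of 74 in DR2 (4 above and 1 below). Above and below are therefore used here relative to the median guide of the pool.

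NRG1, which encodes the ERBB receptor ligand neuregulin 1, had the lowest value of all 149 targets. Its guides had a median of 1121 CPM in MYH high and 1384 CPM in MYH low cells. The median of their log2 ratios was -0.27 (SD 0.21, n = 10 guides). From lowest to highest its guides read -0.45, -0.33, -0.28, -0.27, -0.27, -0.27, -0.16, -0.09, 0.14 and 0.23. Thus 8 of 10 guides lay below 0 and 2 at or below -0.3. NRG1 reached -0.31 with the negative controls as the zero point and -0.38 with no centring, past the threshold in each case, while the mean over its guides was -0.17. KANK4, a scaffold protein of the cell cortex, came next at -0.21 (SD 0.26), with 1201 CPM in MYH high and 1409 CPM in MYH low cells. Its guides separated into 5 between -0.54 and -0.31, 1 at -0.10 and 4 between 0.06 and 0.15, so the median lies in a gap between them. SSTR5, a somatostatin receptor, had -0.16 with the widest scatter of the 3 (SD 0.40), from -0.60 to 0.78, and 914 against 938 CPM.

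By the median, the upper end of DR1 was closer to 0, and its 2 highest targets had more even guides than NRG1 and KANK4. MUSTN1, a small nuclear protein of the musculoskeletal system, had 1296 CPM in MYH high and 1248 CPM in MYH low cells and the highest median, 0.15 (SD 0.12), with 9 of 10 guides above 0. GADL1, a decarboxylase that makes beta-alanine and is found in muscle, had 1312 and 1247 CPM and a median of 0.13 (SD 0.11), with 10 of 10 guides above 0, from 0.01 to 0.31. GADL1 also had the smallest SD over guides in DR1. These were the 2 DR1 targets with at least 90% of guides above 0 (2.67%), beside 62 over all 10 pools (6.31%). With negative controls other than sgRNA3239 as the zero point, MUSTN1 stood at 0.02 and GADL1 at 0.01. SH3TC1, an SH3 and TPR domain protein, had a median of 0.12 (SD 0.34) and 4 guides between 0.43 and 0.66, against a lowest guide of -0.38. By the mean over guides SH3TC1 was the highest DR1 target at 0.20, farther from 0 than the lowest, KANK4, at -0.18. LRRC4 (0.11), a synaptic adhesion protein, ARRB1 (0.11), a beta-arrestin, and ELMOD1 (0.10), a regulator of ARF GTPases, followed, each with 6 or 7 of 10 guides above 0.

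Counts of targets whose guides lay mostly on the same side were low in both pools. In DR1, 2 targets had at least 90% of guides below 0 (2.67%): CSF3, the granulocyte growth factor, at -0.09 with 9 of 10, and SPOCK3, a matrix proteoglycan, at -0.07 with 9 of 10. In DR2, 1 target had at least 90% of guides above 0 (1.35%), ANK1, an ankyrin that anchors membrane proteins to spectrin, at 0.06. In DR2, 1 had at least 90% below 0 (1.35%), SYCE1 of the synaptonemal complex, at -0.07 with the smallest SD of the pool (0.0652). Over all 10 pools, 56 targets had at least 90% of guides below 0 (5.7%). A looser rule of size, at least 0.15 with 80% of guides on that side, took NRG1 alone: DR1 had 0 upward (0%) and 1 downward (1.33%), and DR2 had 0 (0%) and 0 (0%). Over all 10 pools that rule took 47 upward (4.78%) and 43 downward (4.37%).

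**Figure D3:**
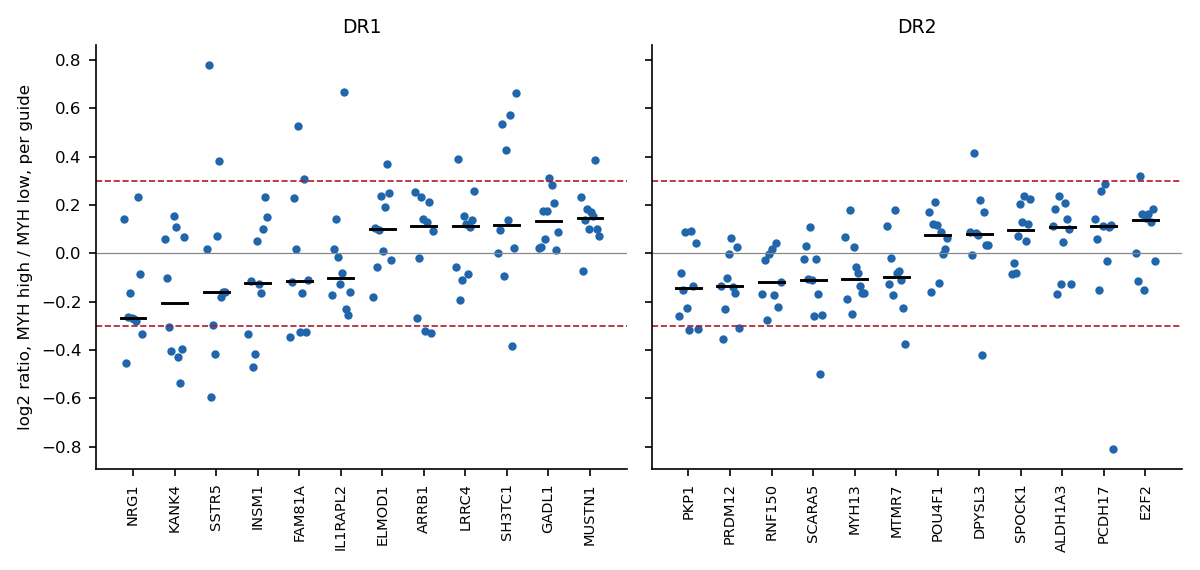
Log2 ratio, MYH high over MYH low, of every guide (points) of the 6 lowest and the 6 highest targets of DR1 (left) and DR2 (right), with the median of each target as a black bar and dashed lines at 0.3 and -0.3. All 10 GADL1 guides lie above 0, and the guides of every other target shown lie on both sides of 0. NRG1 and PKP1, the lowest of each pool, have 8 and 7 of 10 guides below 0. PRDM12, SCARA5 and MTMR7 in DR2 also have 8 of 10 below 0, and MUSTN1 in DR1 has 9 of 10 above 0.

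The DR2 targets spanned a narrower range. PKP1, a desmosomal plakophilin, was lowest at -0.14 (SD 0.16), with 782 CPM in MYH high and 983 CPM in MYH low cells and 7 of 10 guides below 0. PRDM12, a transcriptional regulator of sensory neurons, had 895 and 1047 CPM and a median of -0.14 (SD 0.14), with 8 of 10 guides below 0. RNF150, a ring finger protein, had -0.12 and SCARA5, a ferritin receptor, -0.11. With the negative controls as the zero point, PKP1, the lowest of DR2, stood at -0.04. At the other end, E2F2, a transcription factor of the cell cycle, had 1034 and 1026 CPM and a median of 0.14 (SD 0.15), with 7 of 10 guides above 0. PCDH17, a protocadherin, and ALDH1A3, which makes retinoic acid, each had 0.11, and SPOCK1, a matrix proteoglycan, had 0.10. PCDH17 carried 1 guide at -0.81 against 7 of 10 above 0 (SD 0.31). With the negative controls as the zero point, E2F2, the highest of DR2, stood at 0.25, and at 0.28 when sgRNA3239 was left out of them.

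By class over both pools together, medians lay between -0.01 and 0.03, against 0.00 for all 149 targets. Within a pool they spread further, for classes of at least 3 targets from -0.07 (secreted ligands) to 0.08 (adhesion proteins) in DR1 and from -0.04 (receptors) to 0.03 (matrix and other secreted proteins) in DR2. Some differed in sign between the pools, such as transcription factors with -0.05 in DR1 and 0.03 in DR2. Receptors had a median of -0.01, with 7 of 15 above 0, from SSTR5 at -0.16 to FGFR2 at 0.09. Other receptors near 0 were LGR5 (0.02), the R-spondin receptor of stem cells, ACKR3 (-0.02), a scavenger of CXCL12, and NGFR (0.03), the low-affinity neurotrophin receptor. Secreted ligands and signal modulators had a median of 0.00, with 7 of 13 above 0. They ran from NRG1 to BMP2, a bone morphogenetic protein, at 0.04 (SD 0.16), and FGF8, a fibroblast growth factor, had -0.06 (SD 0.16). The 4 ligands of DR1, NRG1, CSF3, GDF10 and C1QTNF2, all lay below 0 under each of the 5 zero points, as did 37 of all 75 DR1 targets. Of the 9 ligands of DR2, 7 lay above 0, with a median of 0.02.

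Ion channels, pumps and transporters had 11 of 14 targets above 0 and a median of 0.03, beside 79 of all 149 targets above 0. In DR1 all 6 were above 0, but 0 of 6 without centring. They ran from ATP2A3, a calcium pump of the SERCA family, at 0.01 to NKAIN1, a partner of the sodium pump, at 0.09. In DR2, 5 of 8 were above 0. This became 8 of 8 with the negative controls as the zero point and 0 of 8 without centring. RYR3, a calcium release channel of the endoplasmic reticulum, was the lowest of the class at -0.09 (SD 0.22), with 15 of 21 guides below 0. Adhesion and membrane organisation proteins split 5 above and 5 below, from PKP1 to LRRC4. Proteins of the cytoskeleton and membrane traffic had 3 of 10 above 0 and a median of -0.01, from KANK4 to DPYSL3, a collapsin response mediator, at 0.08. Matrix, protease and other secreted proteins had a median of 0.00 and a small range, from OLFM1, a secreted olfactomedin, at -0.08 to SPOCK1.

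Metabolic, lipid and glycan enzymes had a median of -0.01 with 9 of 21 above 0, from MTMR7, a phosphoinositide phosphatase, at -0.10 to GADL1. ASS1 of arginine synthesis had -0.08, and CA11, a carbonic anhydrase-related protein without known activity, also had -0.08. LFNG, which modifies Notch receptors, had 0.06. Intracellular signalling proteins and adaptors had a median of 0.03 with 10 of 16 above 0, from SPSB4, a substrate receptor of a ubiquitin ligase, at -0.08 to SH3TC1. Transcription factors and nuclear regulators had 9 of 16 above 0 and a median of 0.02, from PRDM12 to E2F2. INSM1, a zinc finger factor of endocrine cells, had -0.12 (SD 0.24). The 3 nucleic acid enzymes or RNA-binding proteins ran from KHDRBS3, a splicing regulator, at -0.02 to XRN1, an exonuclease of RNA decay, at 0.02. The 17 other genes ran from RNF150 to MUSTN1 with a median of 0.00.

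**Figure D4:**
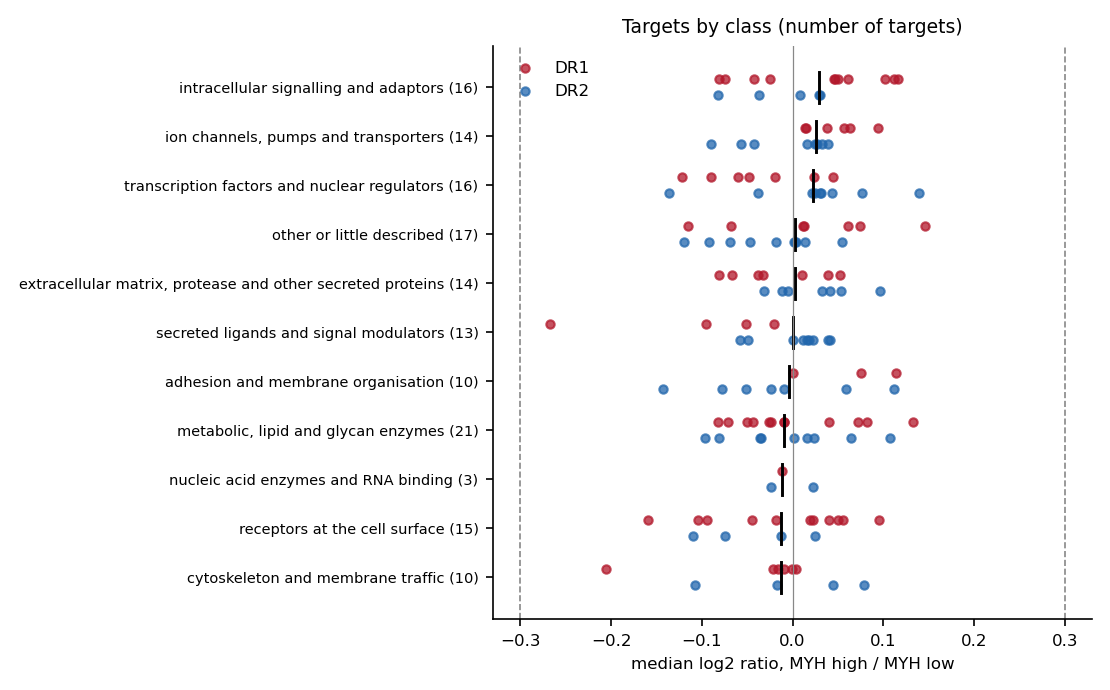
Median log2 ratio, MYH high over MYH low (horizontal axis), of the 149 targets by class (rows, number of targets in brackets), with DR1 in red, DR2 in blue and the class median as a black bar. All class medians over both pools lie between -0.01 and 0.03 and no point reaches the dashed lines at 0.3 and -0.3.

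Some further targets with a known place in muscle or in this tumour are given next. They were picked from their names with the values known and are neither a list nor complete, since MUSTN1 and GADL1, at the upper end of DR1, are also genes of muscle. MYH13, itself a myosin heavy chain of extraocular muscle, had 1073 CPM in MYH high and 1259 CPM in MYH low cells and a median of -0.11 (SD 0.13), with 7 of 10 guides below 0. With the negative controls as the zero point MYH13 stood at -0.001, and at 0.03 when sgRNA3239 was left out of them. Which myosin heavy chains the antibody binds is not given in the labels. SCN4A, the sodium channel of skeletal muscle, had 0.06 (SD 0.16). MEOX1 and EYA1, regulators of somite and muscle precursor development, had 0.03 each, and DMRT2, a factor of the dermomyotome, had 0.04 (SD 0.17). FOXF1, NOS1 and PIPOX, known as genes with high expression in fusion-positive rhabdomyosarcoma, had 0.02, -0.04 and 0.02. MYB, a proto-oncogenic transcription factor, had -0.04 (SD 0.56), the widest SD of DR2. Without its highest guide the SD over the remaining 9 was 0.14.

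Of the 149 genes, 6 were also targeted in another pool, with no guide in common, which sets a second library and sort beside these values. PRDM12 had -0.14 (SD 0.14) in DR2 and -0.11 (SD 0.37) in pool TF1, the same sign in both. FGFR2, a fibroblast growth factor receptor, had 0.09 (SD 0.19) in DR1 and 0.08 (SD 0.35) in pool KP1. E2F2 had 0.14 (SD 0.15) in DR2 and 0.00 (SD 0.22) in pool TF2. RORA, a nuclear receptor, had -0.09 (SD 0.13) in DR1 and 0.02 (SD 0.19) in pool TF3. FOXF1 had 0.02 (SD 0.07) in DR2 and -0.07 (SD 0.22) in pool TF1, and DMRT2 0.04 in DR1 and 0.01 in pool TF2. In each of the 6 genes the difference between pools was smaller than the larger of the SDs over guides. That SD describes single guides and is a loose bound for a difference of medians. Outlying guides can also widen it: the FGFR2 guides of pool KP1 reached 1.17 around a median of 0.08. This comparison therefore cannot decide whether the pools gave the same value for a gene.

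The DR pools were set against the other libraries by the size of their target medians. The SD of target medians was 0.0767 in DR1 and 0.0592 in DR2, and 0.0679 to 0.194 in the other 8 pools. The mean absolute target median was 0.0533 ± 0.00925 (SD, n = 2 pools) against 0.0842 ± 0.0232 (SD, n = 8 pools). The single values were 0.0599 in DR1 and 0.0468 in DR2, and pool KP1, at 0.0470, lay between them. The difference of means was -0.0309. An exact permutation test over the 45 ways to choose 2 of 10 pools gave a two-sided p = 0.0889. Its smallest possible p is 0.0222, and a difference was not shown. The test treats the pools as interchangeable, although they hold largely different genes and differ in read totals. The spread of single guides in the DR pools, with SDs of 0.230 and 0.188, lay within the 0.177 to 0.322 of the other pools.

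**Figure D5:**
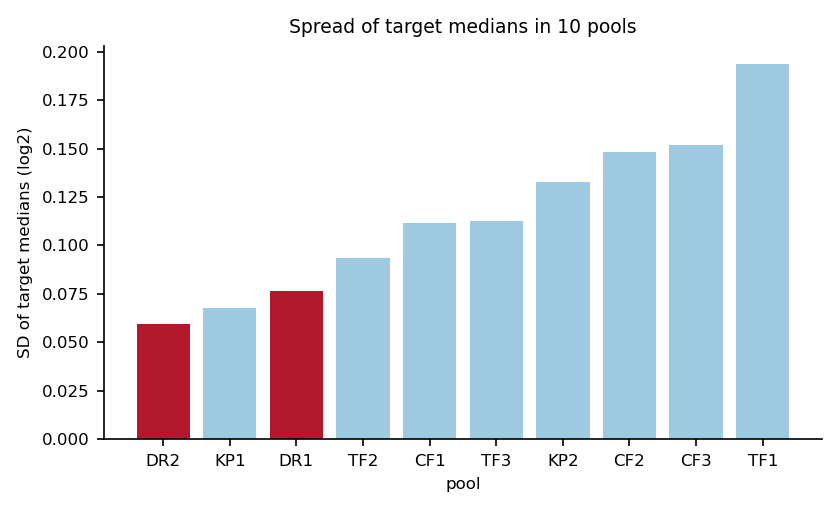
SD of the target medians (log2, vertical axis) in each of the 10 pools (horizontal axis, ordered by SD), with DR1 and DR2 in red and the other 8 pools in light blue. DR2 has the smallest SD (0.0592), DR1 the third from the left (0.0767), and pool TF1 the widest (0.194).

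The size of a target's value had a weak relation to guide abundance, of opposite direction in DR1 and DR2. Mean abundance over the arms ran from 729 CPM (INSM1) to 1583 CPM (CA11) in DR1 and from 630 CPM (NRTN) to 1849 CPM (STATH) in DR2. Spearman's rho between it and the absolute median was 0.24 over 75 targets and -0.21 over 74, as a description across genes within a pool. Counts before the sort are not at hand, so loss of cells through slower growth cannot be read from these samples.

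The authors' deposited table for each pool scores the same targets with a beta value per gene, whose log base is not stated. In DR1 it lists 0 of 75 targets with a false discovery rate under 0.05, the lowest being 0.6. In DR2 the authors' deposited table lists 1 of 74 under that rate, RYR3. It has a beta of -0.0688, a p-value of 0 and a false discovery rate of 0. The authors' smallest p-value above 0 in DR2 was 0.0123, so how far below that a 0 lies cannot be read. GABRG3, PRDM12, SCARA5 and PKP1 had that p-value, a false discovery rate of 0.143 and betas farther below 0, from -0.0941 to -0.0861. The authors' Wald test gives no DR2 target a rate below 0.432. That test also gives the strongly enriched fusion sets of DR2 high rates, 0.624 for PAX3_Fusion_DBD and 0.576 for FOXO1_fusion. It therefore cannot decide on RYR3. RYR3 is the target with 21 guides, and its median here was -0.09. The authors' deposited table puts beta between -0.123 (KANK4) and 0.137 (SH3TC1) in DR1 and between -0.0941 (GABRG3) and 0.0778 (SLCO4A1) in DR2. Across genes, Spearman's rho between the authors' beta and the medians was 0.811 in DR1 and 0.727 in DR2. KANK4, SH3TC1, GABRG3 and SLCO4A1 were also the outermost targets when the mean over guides replaced the median.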

How the data were processed

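Guide cassettes were sequenced from genomic DNA, and the authors deposited 1 count per guide and sample. The counts are whole numbers with a different total in every sample and were taken as unnormalised reads. The submitters' processing notes name FastQC and MAGeCK. Their versions, the genome build and the sequences of the guides were not given in the sources used here. The authors deposited per pool a score (beta, z), p-values and false discovery rates per target; 2 nameless columns were not used.

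Counts were scaled to CPM within a sample. Each guide's log2 ratio, MYH high over MYH low, used a pseudocount of 1 CPM and was centred on the pool's median guide. A minimum of 10 counts over both arms removed 0 guides. Targets needed 3 guides. The steps were tested on simulated counts. Of 149 target names, 148 matched current RefSeq symbols (GRCh38.p14) and 1 an older one (FAM196A, now INSYN2A). Members, classes and lists were chosen with earlier results of these data known. Named were the 10 highest and 10 lowest targets per pool, targets of a second pool and up to 3 members per class; further genes were added after their values were seen. The 1 test, over pools, was an exact permutation test. Alternatives were other centrings, pseudocounts, count minimums, thresholds and the mean over guides. Python 3.11.15, numpy 2.4.6, pandas 2.3.3, scipy 1.17.1 and matplotlib 3.10.9 were used.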

Additional observations from a re-analysis of the deposited data

How the results depend on the processing

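The counts of targets at or above 0.3 in DR1, and in either direction in DR2, were 0 under every alternative run: other centrings, pseudocounts of 0.1 and 10 CPM, no count minimum or 1000 counts, thresholds of 0.2 and 0.4, and the mean over guides (for thresholds, at the new value). The count at or below -0.3 in DR1 was 0 and became 1 (NRG1, -0.31) with centring on the negative controls, and 2 (NRG1 and KANK4) with no centring, with a threshold of 0.2, and with centring on the negative controls without sgRNA3239, where NRG1 stood at -0.39; the last setting was chosen after seeing the data. Of 513 values of named targets under alternatives, 20, in 14 targets and all under a changed centring, moved by more than the target's SD over guides. With the mean over guides, DR1 ran from KANK4 (-0.18) to SH3TC1 (0.20) and DR2 from GABRG3 (-0.14) to SLCO4A1 (0.11). No paired analysis was possible because each pool has 1 sample per arm and the counts come from no test. The lowest guide had 1916 counts over both arms in DR1 and 2701 in DR2, so neither changed count minimum altered any value. A threshold of 0.4 could not raise a count of 0 at 0.3. These settings were therefore no test of those counts, and the 513 values include unchanged ones from the count minimums. No repeat sort of a pool was analysed here, so the values cannot be set against a spread between sorts.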

Other observations

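Single guides reached much further than any target. In DR1, 31 of 751 target guides (4.13%) lay past 0.5 in size, 23 upward and 8 downward, spread over 24 targets. SH3TC1 had 3 such guides upward and PREX2, an exchange factor for the GTPase RAC, had 2. No DR1 target had more than 1 downward, and ADRA2C, FAM107A, IMPG2 and SSTR5 each had 1 in both directions. In DR2, 14 of 750 guides (1.87%) lay past 0.5, 7 in each direction, each in a target of its own. In the other 8 pools this share ran from 1.51% to 9.98%, with a mean of 4.11%. Upward guides outnumbered downward ones in each of those pools except CF3 (52 and 55).

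The most extreme target guide of both pools was sgRNA4377 against MYB in DR2. It had 102733 counts in MYH high and 42449 in MYH low cells, a log2 ratio of 1.65. The other 9 MYB guides had a mean of -0.06 (SD 0.14), and the next highest stood at 0.11. In DR1 the highest guides were 1 against FUT3, a fucosyltransferase, at 1.10 and 1 against FAM107A, an actin-associated protein, at 1.04, where the target medians were 0.08 and 0.06. The lowest target guides were in DR2, 1 each against ADCYAP1, a neuropeptide (-0.87), RYR3 (-0.82) and PCDH17 (-0.81). The median of ADCYAP1 was 0.02 and that of PCDH17 0.11, on the other side of 0 from these guides.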
